A study of Rattus norvegicus with 29 samples.

Results

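Glutamate transport and metabolism was examined through 8 genes in the shell of the nucleus accumbens. The animals were P (alcohol-preferring) rats, selectively bred to drink ethanol by choice. The genes were Slc1a3, Slc1a2, Slc1a1, Slc7a11, Slc17a7, Slc17a6, Glul and Glud1. All probe sets whose only symbol in the array annotation was one of these were taken, which gave 16 of the 31042 probe sets that are not controls, for 8 of 14217 genes named by 1 symbol. A probe set is a group of short oligonucleotides that read the same transcript, and 6 of the 8 genes had more than 1. The arrays came from P rats with no ethanol (Water_only, called water here, n = 9), P rats with access to limited ethanol (Limited_Ethanol, called limited, n = 10) and P rats exposed to continuous ethanol (Continuous_ethanol, called continuous, n = 10). The design text counts 10 controls, and the tenth was not analysed here. The sources used here give no dose, duration of access, age or sex. All groups were of the same selected line, so nothing here compares P rats with rats that do not prefer ethanol.

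Glutamate released at synapses is cleared by transporters in the plasma membrane, mostly of astrocytes, which convert it to glutamine and return that to neurons. A cystine-glutamate exchanger in glia releases glutamate outside the synapse, and its activity in the accumbens is known for its part in animal models of drug seeking. Vesicular transporters load glutamate into synaptic vesicles, and different ones mark glutamatergic neurons of cortex and of subcortical regions. The principal neurons of the accumbens are GABAergic medium spiny neurons, and its glutamatergic input comes from cell bodies in other regions.

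Values are log2 expression from RMA, which brings all arrays to a shared distribution before each probe set is summarised, so a difference of 1 is a doubling. Percentiles by mean level and the words brightest and dimmer refer to signal, and they do not rank amounts of transcript between probe sets. A difference between probe sets of the same gene within an array is only compared between groups. Medians of the arrays lay between 8.17 and 8.21. Of 14 markers of medium spiny neurons on the list, 13 were above the filter on dim probe sets. These ran from the 71.4th percentile of all probe sets by mean level (Gpr6) to the 99.1th (Penk). Ppp1r1b, Tac1 and Drd1 lay at or above the 95.9th, and Drd2 and Adora2a at the 76.5th and 82.3th. Water replicate 9 was the array least like its group (median correlation 0.979). In an earlier account of these data 5 arrays, water replicates 2, 5 and 6 and limited replicates 6 and 7, lay apart from the others. Continuous replicate 7 had the highest astrocyte and microglia marker scores of the 29 arrays, 0.25 and 0.40, against at most 0.03 and 0.05 in the other continuous arrays. A marker score averages, over a cell type's markers, how far each lay from its own 29-array mean on the log2 scale. Leaving out any of these arrays left 0 of the 16 probe sets called, and values without them are given beside some members.

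None of the 8 genes passed the test in any comparison, on any of its probe sets. All 16 probe sets were above the filter and entered the test, which was a limma fit over 21729 probe sets with p-values adjusted by the Benjamini-Hochberg method. With continuous ethanol against water 0 of 16 passed an adjusted p of 0.05, where 0.152% of all tested probe sets did (0.0874% higher and 0.0644% lower), and the smallest adjusted p among the 16 was 0.218. With limited access against water 0 of 16 passed (0% of all tested probe sets) at a smallest adjusted p of 0.972. Between limited and continuous access 0 of 16 passed, against 0.0046% of all, at a smallest adjusted p of 0.578. Values of the groups compared overlapped for 16 of 16 probe sets in each comparison. The labels do not say that each sample was a separate animal, so these p-values measure the spread between samples, which may in part be technical.

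**Figure D1:**
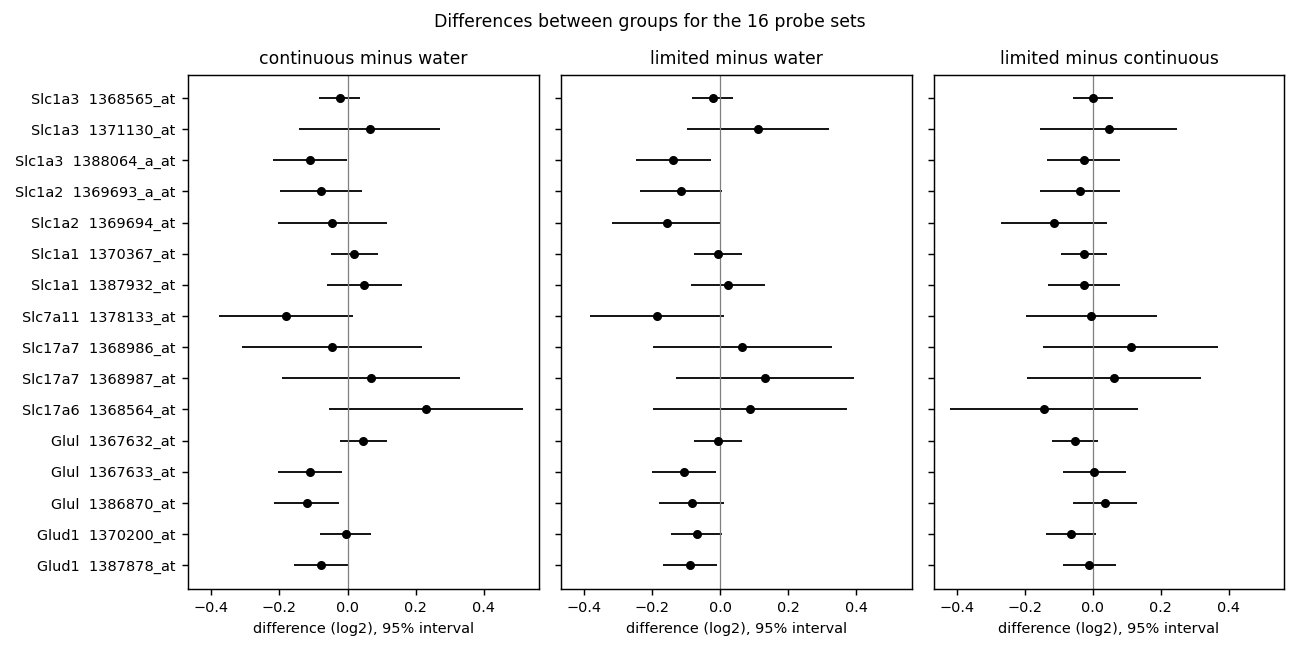
Difference of group means (log2, horizontal axis) with its 95% interval from limma for each of the 16 probe sets (rows), in 3 panels for the 3 comparisons. The points lie between -0.19 and 0.23, and the intervals of Slc17a7 and Slc17a6 are the widest, while those of the brightest Slc1a3 and Glul probe sets are among the narrowest.

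The differences ran from -0.18 to 0.23 for continuous minus water, from -0.19 to 0.13 for limited minus water and from -0.14 to 0.11 for limited minus continuous. The median over the 16 probe sets was -0.03, -0.05 and -0.02 in that order, where the median over all tested probe sets was 0.00, 0.00 and -0.01. Differences below 0, with no test, were 10, 11 and 10 of 16 (62.5%, 68.8% and 62.5%), against 47.5%, 49.5% and 53.4% of all tested probe sets. At an unadjusted limma p under 0.05, 3 of 16 (18.8%) were lower with continuous ethanol and 0 were higher, against 6.48% and 9.62% of all tested probe sets (16.1% in either direction). With limited access 3 of 16 (18.8%) were lower and 0 higher, against 2.34% and 2.1% (4.44% in either direction). Between limited and continuous access 0 of 16 were under that p in either direction, against 9.31% (3.56% higher and 5.74% lower). The test over the 3 groups gave 3 of 16 (18.8%) under an unadjusted p of 0.05, against 11.6%, and 0 under an adjusted p of 0.05, against 0.0828%. Both comparisons with water share the same water arrays. Probe sets of the same gene are counted apart here. The 3 with continuous ethanol, and in the test over the 3 groups, were Slc1a3 1388064_a_at, Glul 1367633_at and Glul 1386870_at. With limited access they were Slc1a3 1388064_a_at, Glul 1367633_at and Glud1 1387878_at. The Glul pair moved together (r = 0.892 with group means subtracted), so these shares do not count separate genes.

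**Figure D2:**
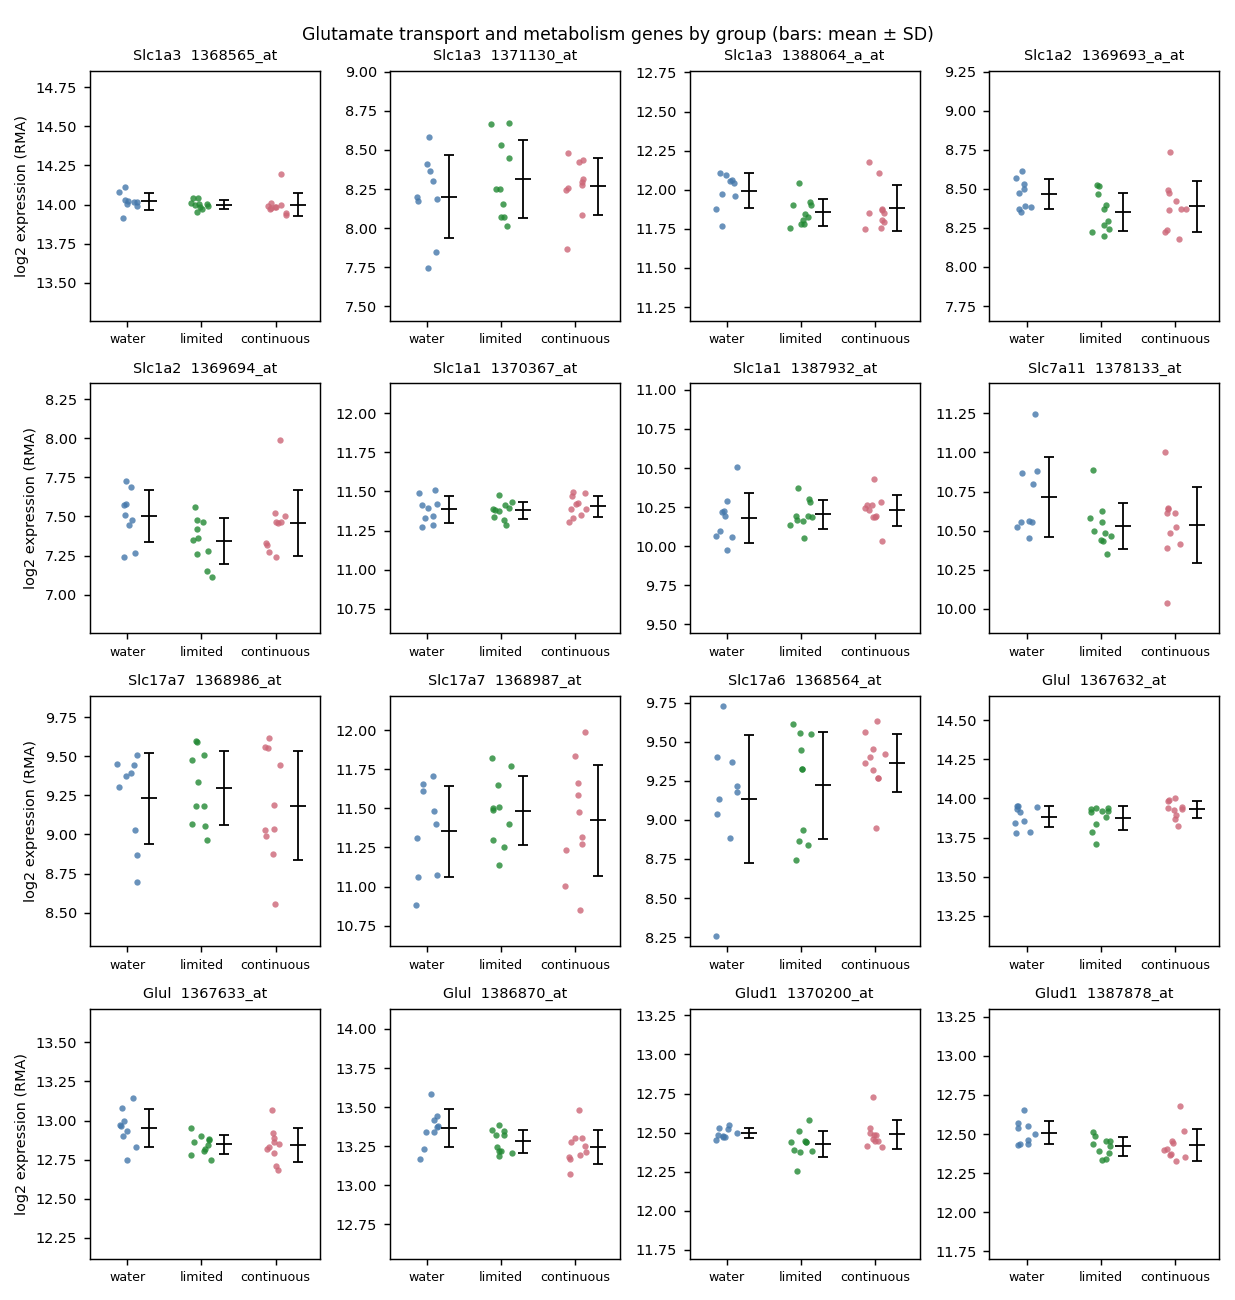
Log2 expression of each of the 16 probe sets (panels) in every array, by group; points are arrays, and the bar beside each group is its mean ± SD (water n = 9, limited and continuous n = 10). Every panel spans 1.6 log2 units, so the spread of Slc17a7, Slc17a6 and Slc7a11 can be set beside the narrow spread of Slc1a3 1368565_at, Glul 1367632_at and Slc1a1 1370367_at, and the groups overlap in each panel.

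The astrocytic transporter genes are described first. Slc1a3 encodes GLAST, a glutamate transporter of astrocytes, and was read by 3 probe sets. On the brightest, 1368565_at, values in water ran from 13.92 to 14.11 with a median of 14.02. They ran from 13.95 to 14.04 (median 14.00) with limited access and from 13.94 to 14.20 (median 13.98) with continuous ethanol. The groups overlapped almost wholly, apart from continuous replicate 7 at 14.20. Its residual SD, 0.06, was lower than that of all but 2.38% of tested probe sets. The difference from water was -0.02 ± 0.03 (SE, 95% interval -0.08 to 0.04, adjusted p = 0.728) with continuous and -0.02 ± 0.03 (-0.08 to 0.04, adjusted p = 0.972) with limited access. In percent, the continuous interval ran from -5.57% to 2.63%. Without continuous replicate 7 the continuous difference was -0.04.

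A second Slc1a3 probe set, 1388064_a_at, had its highest mean in water. Its values ran from 11.77 to 12.11 (median 12.04) in water, from 11.75 to 12.04 (median 11.83) with limited access and from 11.75 to 12.18 (median 11.85) with continuous ethanol. Most ethanol arrays lay below the water median, and the ranges still overlapped. The difference was -0.14 ± 0.05 for limited minus water (95% interval -0.25 to -0.03, unadjusted limma p = 0.0154, adjusted p = 0.972), with 9 of 10 arrays below the water mean. For continuous minus water it was -0.11 ± 0.05 (-0.22 to -0.00, unadjusted limma p = 0.0480, adjusted p = 0.305, 8 of 10 arrays). With the astrocyte score as a covariate the limited difference was -0.09 ± 0.05 and the continuous one -0.08 ± 0.05. The third probe set, 1371130_at, was dimmer and varied more, from 7.74 to 8.67 over all arrays, and its differences from water had the opposite sign (limited 0.11 ± 0.10 and continuous 0.07 ± 0.10, adjusted p = 0.972 and 0.779). Without water replicate 9 these were 0.05 and 0.01, and without the 5 arrays that lay apart 0.19 and 0.18.

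Slc1a2 encodes GLT-1, the transporter that carries most glutamate uptake in the forebrain. Its probe set 1369693_a_at had values from 8.35 to 8.62 (median 8.48) in water, 8.20 to 8.53 (median 8.33) with limited access and 8.18 to 8.74 (median 8.37) with continuous ethanol. Water arrays were on the high side of a shared range. The difference was -0.12 ± 0.06 for limited minus water (95% interval -0.24 to 0.00, adjusted p = 0.972, 8 of 10 arrays) and -0.08 ± 0.06 for continuous minus water (-0.20 to 0.04, adjusted p = 0.514). The dimmer probe set, 1369694_at, gave -0.16 ± 0.08 (limited, adjusted p = 0.972) and -0.04 ± 0.08 (continuous, adjusted p = 0.809). The continuous difference was -0.10 without continuous replicate 4 and -0.02 without water replicate 9. By mean level 1369693_a_at lay at the 53.2 percentile of all probe sets and 1369694_at at the 38.5. How well they read the Slc1a2 transcript was not tested.

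Slc1a1 encodes EAAC1, the glutamate and cysteine transporter of neurons. Probe set 1370367_at had values from 11.27 to 11.51 (median 11.39) in water, 11.29 to 11.48 (median 11.39) with limited access and 11.30 to 11.50 (median 11.40) with continuous ethanol. The ranges of the 3 groups lay nearly on top of each other. Its differences from water were 0.02 ± 0.03 (continuous, 95% interval -0.05 to 0.09, adjusted p = 0.799) and -0.01 ± 0.03 (limited, -0.08 to 0.07, adjusted p = 0.995). The second probe set, 1387932_at, gave 0.05 ± 0.05 (adjusted p = 0.670) and 0.02 ± 0.05 (adjusted p = 0.983).

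Slc7a11 encodes xCT, the subunit of the cystine-glutamate exchanger that carries the substrates, and had 1 probe set, 1378133_at. In the 9 water arrays its values, from replicate 1 to 9, were 10.56, 11.25, 10.55, 10.45, 10.87, 10.80, 10.56, 10.53 and 10.88. With limited access they ran from 10.35 to 10.89 (median 10.49), and with continuous ethanol from 10.04 to 11.00 (median 10.57). Water replicates 2, 5, 6 and 9 were the high ones, and 1 limited and 1 continuous array reached their level. Water replicates 2, 5 and 6, at 11.25, 10.87 and 10.80, are among the 5 arrays that lay apart. The difference from water was -0.19 ± 0.10 (95% interval -0.38 to 0.01, adjusted p = 0.972, 9 of 10 arrays) with limited and -0.18 ± 0.10 (-0.38 to 0.02, adjusted p = 0.349, 9 of 10 arrays) with continuous ethanol. Without the 5 arrays the differences were -0.05 ± 0.10 for both. Limited and continuous arrays differed by -0.00 ± 0.09 (-0.20 to 0.19, adjusted p = 0.993).

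Slc7a11 was the member that followed another tissue's markers most closely. Across the 29 arrays, with each group's mean subtracted, it had a Pearson r of 0.915 with the score of 16 leptomeningeal markers (the soft membranes around the brain; permutation p = 1e-05, the smallest that 100000 permutations can give, adjusted p = 0.00072). Spearman's rho was 0.861 (adjusted p = 0.00072). Within water, limited and continuous arrays r was 0.972, 0.861 and 0.933, and without the 2 arrays farthest from the median of Slc7a11 it was 0.895. None of the 16 markers is a member. The score ran from -0.23 to 0.94 in water, from -0.35 to 0.64 in limited and from -1.42 to 0.60 in continuous arrays, and it did not pass between groups (continuous minus water -0.30, exact permutation p = 0.187, adjusted p = 0.348; limited minus water -0.25, exact p = 0.121, adjusted p = 0.392). With the score as a covariate the Slc7a11 difference was -0.04 ± 0.04 for continuous minus water and -0.06 ± 0.04 for limited minus water, against -0.18 and -0.19 without it. In pieces of tissue, more cells of a type and more transcript per cell cannot be told apart.

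**Figure D3:**
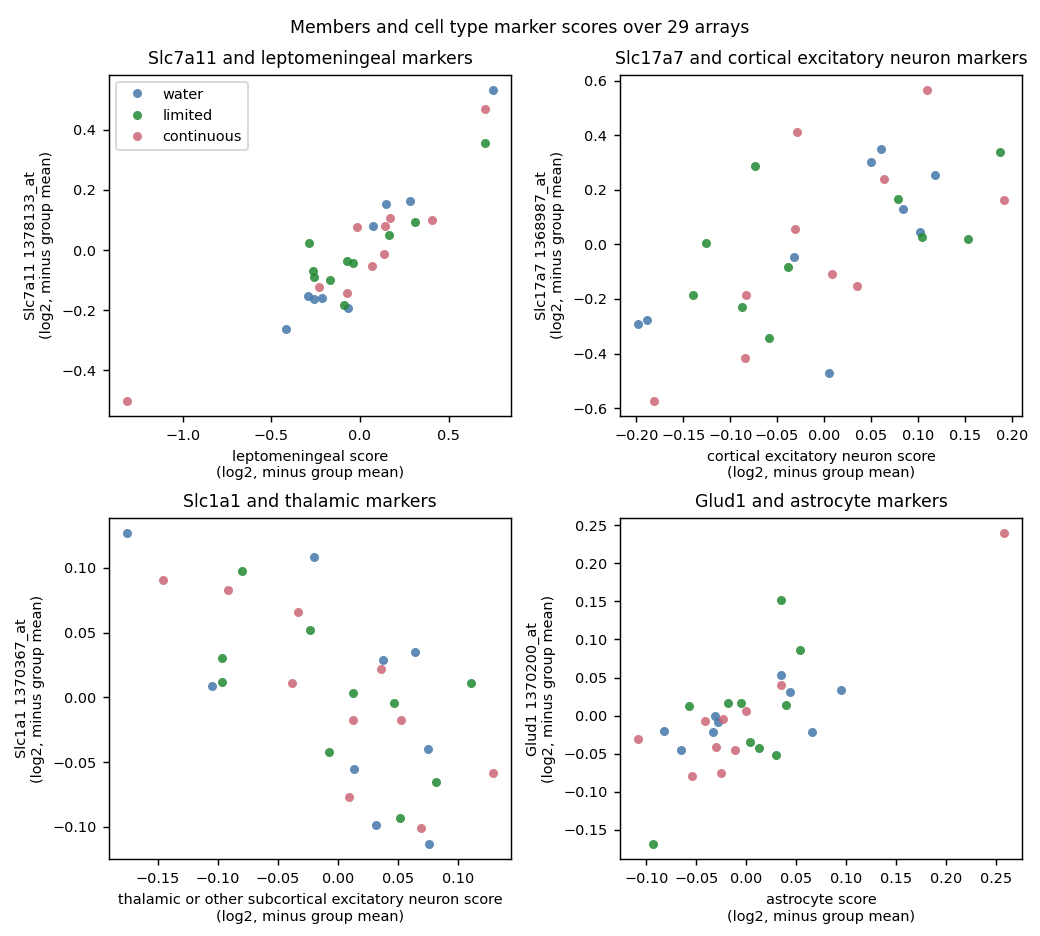
Log2 expression of Slc7a11, Slc17a7, Slc1a1 and Glud1 (vertical axes, brightest probe set) against a marker score (horizontal axes, log2), both with the group mean subtracted; each point is 1 of 29 arrays, coloured by group. Slc7a11 rises along the leptomeningeal score in all 3 groups (r = 0.915), while the upper right point of the Glud1 panel is continuous replicate 7, without which r was 0.545 in place of 0.760.

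The vesicular transporters were the members that varied most between arrays of the same group. Slc17a7 encodes VGLUT1, the vesicular transporter typical of cortical neurons. On 1368987_at its values ran from 10.88 to 11.70 (median 11.40) in water, 11.14 to 11.82 (median 11.50) with limited access and 10.85 to 11.99 (median 11.40) with continuous ethanol. Each group spanned far more than the distance between the medians. The differences from water were 0.07 ± 0.13 (continuous, 95% interval -0.19 to 0.33, adjusted p = 0.821) and 0.13 ± 0.13 (limited, -0.13 to 0.39, adjusted p = 0.972). On 1368986_at they were -0.05 ± 0.13 (adjusted p = 0.893) and 0.07 ± 0.13 (adjusted p = 0.980), so the probe sets differed in sign for continuous ethanol. The residual SD of both, 0.30, exceeded that of 96.3% of tested probe sets or more. In percent, the continuous interval for 1368987_at ran from -12.5% to 25.8%.

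Slc17a7 followed markers of cortical excitatory neurons. With group means subtracted its r with the score of 13 such markers, Slc17a7 not among them, was 0.637 over 29 arrays (permutation p = 2.8e-04, adjusted p = 0.00475), and rho was 0.666 (adjusted p = 0.00504). Within water, limited and continuous arrays r was 0.687, 0.545 and 0.707, and it was 0.571 without the 2 farthest arrays. It ran opposite to the oligodendrocyte score (r = -0.634, permutation p = 5.6e-04, adjusted p = 0.00672; rho = -0.620, adjusted p = 0.0130; r = -0.631 without the 2 farthest arrays). Neither score passed between groups: the cortical score was -0.03 ± 0.12 (SD) in water, 0.00 ± 0.12 in limited and 0.03 ± 0.11 in continuous arrays (continuous minus water, exact permutation p = 0.292, adjusted p = 0.423). With the cortical score as a covariate the Slc17a7 difference on 1368987_at was -0.02 ± 0.10 for continuous and 0.08 ± 0.10 for limited minus water. The 13 cortical markers ran from the 31.6 percentile of all probe sets by mean level (Rorb) to the 99.1 (Lmo4). What the cortical score reads in this tissue was not tested.

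Slc17a6 encodes VGLUT2, the vesicular transporter typical of thalamic and other subcortical glutamatergic neurons. Its 1 probe set, 1368564_at, ran from 8.25 to 9.73 (median 9.18) in water, 8.74 to 9.62 (median 9.33) with limited access and 8.95 to 9.63 (median 9.38) with continuous ethanol. The order of means was water, limited, continuous, and no neighbours in that order differed beyond their spread. The difference was 0.23 ± 0.14 for continuous minus water (95% interval -0.05 to 0.52, adjusted p = 0.410, 9 of 10 arrays above the water mean), the largest of the 16 in size, and 0.09 ± 0.14 for limited minus water (-0.20 to 0.37, adjusted p = 0.975). Its residual SD of 0.32 exceeded that of 97.1% of tested probe sets. Without the 5 arrays that lay apart the continuous difference was 0.05 ± 0.12 (adjusted p = 0.919). The interval over all arrays allows an increase of 43.0% or a decrease of 3.66% with continuous ethanol. By r no relation of Slc17a6 with the 9 marker scores passed, the smallest adjusted p being 0.105 with the cortical score (r = -0.431, permutation p = 0.0291; rho = -0.394). By rho the one with the medium spiny neuron score passed (rho = -0.536, adjusted p = 0.0475), while its r was -0.168 (permutation p = 0.405, adjusted p = 0.560). That r was -0.702 without water replicates 2 and 7, and within water, limited and continuous arrays it was 0.476, -0.907 and -0.526, so the sign in water was opposite.

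The enzymes that turn glutamate over came last in order of role. Glul encodes glutamine synthetase, the astrocytic enzyme that makes glutamine from glutamate, and its 3 probe sets did not give the same picture. On 1386870_at values ran from 13.17 to 13.59 (median 13.37) in water, 13.19 to 13.39 (median 13.29) with limited access and 13.07 to 13.48 (median 13.23) with continuous ethanol. Most ethanol arrays lay below the water mean, and the ranges overlapped. The difference was -0.12 ± 0.05 for continuous minus water (95% interval -0.22 to -0.02, unadjusted limma p = 0.0159, adjusted p = 0.218, 9 of 10 arrays below the water mean) and -0.08 ± 0.05 for limited minus water (-0.18 to 0.01, adjusted p = 0.972, 9 of 10 arrays). On 1367633_at it was -0.11 ± 0.05 (unadjusted limma p = 0.0232, adjusted p = 0.243) and -0.11 ± 0.05 (unadjusted limma p = 0.0291, adjusted p = 0.972), with 9 of 10 arrays below in each. On the brightest probe set, 1367632_at, it was 0.05 ± 0.03 (adjusted p = 0.498, 8 of 10 arrays above) and -0.01 ± 0.03 (adjusted p = 0.995).

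The dimmer pair of Glul probe sets moved together from array to array, at r = 0.892 over 29 arrays with group means subtracted (permutation p = 1e-05, adjusted p = 5e-05; rho = 0.816; r = 0.823 without the 2 farthest arrays). The brightest one had r = 0.172 and 0.121 with them (permutation p = 0.374 and 0.537; rho = 0.162 and 0.0872). Its values lay between 13.71 and 14.00, at the 99.4 percentile of all probe sets by mean level. Within an array, 1367632_at minus 1386870_at was 0.52 ± 0.12 (SD, n = 9) in water, 0.60 ± 0.12 in limited and 0.69 ± 0.11 in continuous arrays (n = 10 each). For continuous against water this differed by 0.17 (exact permutation p = 0.00533, 10 of 10 arrays above the water mean), which after adjustment over the 30 such comparisons of probe sets of the same gene gave 0.0847 and did not pass. Of those 30, 0 passed and 4 had an unadjusted exact p under 0.05.

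Of 13 marker and array measures, the endothelial score alone passed between continuous and water arrays, and none passed in the other comparisons. The endothelial score was -0.06 ± 0.07 (SD) in continuous and 0.08 ± 0.12 in water arrays (exact permutation p = 0.00259, adjusted p = 0.0336 over 13 measures), and the spread (SD) of the values within an array was 2.18 ± 0.01 against 2.16 ± 0.02 (exact p = 0.0154, adjusted p = 0.0948). Beta-actin probe sets, whose 3 prime signal less the 5 prime one bears on RNA quality, gave a difference of 1.27 ± 0.08 in continuous and 1.20 ± 0.05 in water arrays (exact p = 0.0219, adjusted p = 0.0948). For limited minus water the endothelial score differed by -0.09 (exact p = 0.0710, adjusted p = 0.392), the spread by 0.00 (exact p = 0.691) and the beta-actin signal by -0.03 (exact p = 0.431). The beta-actin signal differed most for limited minus continuous, by -0.10 (exact p = 0.0146, adjusted p = 0.133). With the spread within an array as a covariate the Glul 1386870_at difference for continuous minus water was -0.07 ± 0.05, and with the endothelial score it was -0.06 ± 0.05. The call of the endothelial score was lost without water replicate 9 (difference -0.13, adjusted p = 0.0621) and without the 5 arrays that lay apart (-0.09, adjusted p = 0.367). The astrocyte score was 0.03 ± 0.06 in water, -0.02 ± 0.05 in limited and -0.00 ± 0.10 in continuous arrays, with limited minus water at an exact p of 0.0666 (adjusted p = 0.392). With it as a covariate the limited minus water differences of Glul were -0.07 ± 0.04 on 1367633_at and -0.04 ± 0.04 on 1386870_at.

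Glud1 encodes the mitochondrial glutamate dehydrogenase, which interconverts glutamate and 2-oxoglutarate. On 1370200_at water arrays lay between 12.45 and 12.55 (median 12.49), limited arrays between 12.26 and 12.58 (median 12.44) and continuous arrays between 12.41 and 12.73 (median 12.47). The water arrays were the closest together, inside the range of the limited arrays. The differences were -0.01 ± 0.04 for continuous (95% interval -0.08 to 0.07, adjusted p = 0.957), -0.07 ± 0.04 for limited minus water (-0.14 to 0.01, adjusted p = 0.972) and -0.06 ± 0.04 for limited minus continuous (-0.14 to 0.01, adjusted p = 0.578, the smallest of the 16 there). On 1387878_at the limited difference was -0.09 ± 0.04 (-0.17 to -0.01, unadjusted limma p = 0.0315, adjusted p = 0.972, 9 of 10 arrays below the water mean) and the continuous one -0.08 ± 0.04 (-0.16 to 0.00, adjusted p = 0.327). With the astrocyte score as a covariate the limited difference on that probe set was -0.06 ± 0.03.

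Glud1, Slc1a3 and Slc7a11 followed the astrocyte markers over all arrays, and Slc1a2 did not pass. Glud1 had r = 0.760 with the score of 14 astrocyte markers (permutation p = 9e-05, adjusted p = 0.00264; rho = 0.597, adjusted p = 0.0117), and Slc1a3 had r = 0.737 (permutation p = 0.00273, adjusted p = 0.0253; rho = 0.438, adjusted p = 0.148). Slc1a2 had r = 0.518 (permutation p = 0.0177, adjusted p = 0.0750; rho = 0.352). Slc7a11 had r = 0.571 (permutation p = 0.00667, adjusted p = 0.0437; rho = 0.367, adjusted p = 0.210). Its r was 0.407 without continuous replicate 7 and 0.372 without the 2 farthest arrays, and it passed in neither. Without continuous replicate 7 the relation of Glud1 was 0.545 (adjusted p = 0.0198) and that of Slc1a3 0.423 (adjusted p = 0.224). Without the 2 arrays farthest from the median of the gene they were 0.417 and 0.273, so neither relation passed then. The microglia score was followed too, by Slc1a3 (r = 0.718, permutation p = 0.00281, adjusted p = 0.0253; rho = 0.272), Slc1a2 (r = 0.554, permutation p = 0.00614, adjusted p = 0.0437; rho = 0.416) and Glud1 (r = 0.593, permutation p = 0.00638, adjusted p = 0.0437; rho = 0.454). None of these 3 passed by rho, and without continuous replicate 7 their r was 0.451, 0.302 and 0.280 and none passed. In continuous replicate 7, 1370200_at of Glud1 was at 12.73 against at most 12.53 in the other continuous arrays, and the brightest probe sets of Slc1a3, Slc1a2 and Glul were also at their highest of all 29 arrays. The brightest Glul probe set had no such relation that passed (r = 0.298, permutation p = 0.0980, adjusted p = 0.243; rho = 0.305).

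Slc1a1 moved against markers of thalamic or other subcortical neurons such as Tcf7l2 and Zic1. Its r with the score of 6 such markers was -0.677 over 29 arrays (permutation p = 1.1e-04, adjusted p = 0.00264), and rho was -0.646 (adjusted p = 0.0101). Within water, limited and continuous arrays r was -0.638, -0.585 and -0.808, and without the 2 farthest arrays, water replicates 2 and 9, it was -0.601. The score did not pass between groups (continuous minus water -0.07, exact permutation p = 0.0990, adjusted p = 0.322). Its 6 markers ran from the 35.1 percentile of all probe sets by mean level (Zic1) to the 78.3 (Tcf7l2). Slc17a6, typical of such neurons, had r = 0.197 with this score (permutation p = 0.329, adjusted p = 0.526; rho = 0.217). Within water, limited and continuous arrays that r was -0.353, 0.618 and 0.686. What the score reads in this tissue was not tested. In all, 12 of 72 relations of a member with a marker score passed after adjustment over the 72, 8 positive and 4 negative. Of these, 5 passed by rho too. The medium spiny neuron score was among them by r, with Slc7a11 (r = -0.653, permutation p = 3.3e-04, adjusted p = 0.00475; rho = -0.458, adjusted p = 0.118). Glud1 passed with it as well (r = -0.462, permutation p = 0.00781, adjusted p = 0.0469; rho = -0.367, adjusted p = 0.201). Without the 2 farthest arrays these were -0.376 and -0.184, and neither passed. Relations with scores other than the astrocyte and cortical ones, which make up 16 of the 72, were added after seeing the data. The relations of Slc7a11 with the leptomeningeal score, of Slc1a1 with the subcortical score and of Slc17a7 with the cortical and oligodendrocyte scores kept an adjusted p under 0.05 under all 4 ways of leaving out arrays.

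**Figure D4:**
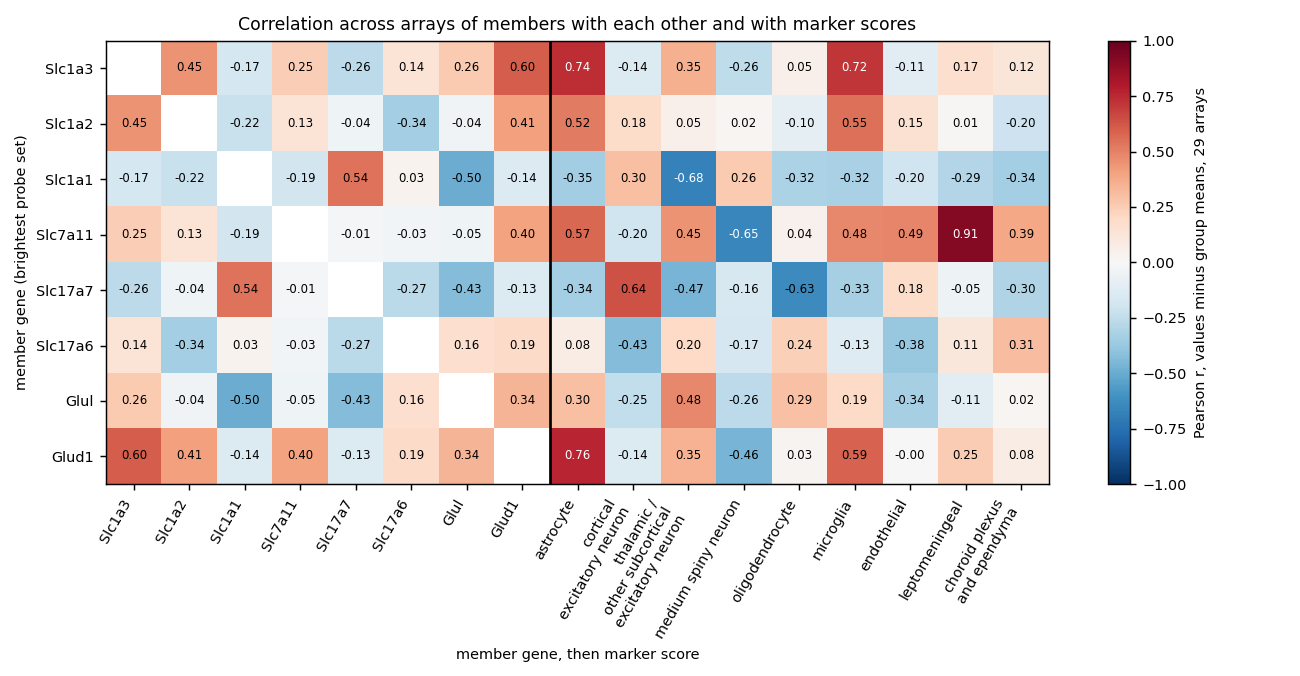
Pearson r (colour and printed value) over 29 arrays with group means subtracted, between the 8 genes (rows, brightest probe set) and each other (left of the line) or 9 marker scores (right). The strongest cell is Slc7a11 with the leptomeningeal score at 0.915, and the strongest between members is Slc1a3 with Glud1 at 0.603, which did not pass after adjustment.

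On their brightest probe sets no pair of members passed, which does not show that the members varied apart. Of 28 pairs of genes, each on its brightest probe set, 0 passed after adjustment and 7 had an unadjusted permutation p under 0.05, with r from -0.496 to 0.603 and a median of -0.02. Slc1a1 and Slc17a7, both neuronal, had r = 0.544 (permutation p = 0.00406, adjusted p = 0.0781; rho = 0.509), and Slc1a1 and Glul had r = -0.496 (permutation p = 0.00830, adjusted p = 0.0781; rho = -0.545). Slc1a3 and Glud1 had r = 0.603 (permutation p = 0.00837, adjusted p = 0.0781; rho = 0.262), which was 0.205 without the 2 farthest arrays. The pair of vesicular transporters had r = -0.266 (permutation p = 0.152; rho = -0.214). Pairs of genes on their other probe sets were not tested, so nothing is said here about whether members vary together on those. The brightest probe sets followed the others of their own gene weakly for Glul (r = 0.172 and 0.121) and Slc1a3 (0.267 and 0.357).

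Probe sets of 1 gene agreed to very different degrees. Of 10 pairs, 4 passed: Slc17a7 (r = 0.911, adjusted p = 5e-05; rho = 0.915), the dimmer Glul pair given above, Slc1a1 (r = 0.580, permutation p = 0.00241, adjusted p = 0.00803; rho = 0.520) and Glud1 (r = 0.550, permutation p = 0.0102, adjusted p = 0.0255; rho = 0.498). The Glud1 relation was 0.242 without continuous replicate 7 (adjusted p = 0.415). The Slc1a2 pair had r = 0.382 (permutation p = 0.0652, adjusted p = 0.130; rho = 0.386), and the 3 Slc1a3 pairs had r from 0.135 to 0.357 (permutation p from 0.110 to 0.480; rho from 0.0695 to 0.20).

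The genes most like the brightest probe set of each member across the 29 arrays are given as a description with no test. They were ranked by r of values with group means subtracted, over all tested probe sets with 1 symbol. Slc7a11 was most like Anxa2 (0.943), Aebp1 (0.942) and Fgl2 (0.938). Slc17a6 was most like the calcitonin receptor gene Calcr (0.888), Kctd9 (0.832) and Nap1l5 (0.815). Slc17a7 was most like Syt17 (0.808), Gprin1 (0.799) and Nfib (0.754), and Slc1a1 was most like Jak2 (0.827), Hivep2 (0.815) and Tenm3 (0.764). Slc1a3 was most like Poldip2 (0.895), Chpt1 (0.831) and Rangrf (0.816), and Slc1a2 was most like Acsbg1 (0.783), Swap70 (0.764) and Tmem100 (0.758), of which Acsbg1 is on the astrocyte list. Glul was most like Elavl2 (0.836), Dut (0.777) and Nrxn3 (0.773), and Glud1 was most like Chi3l1 (0.799), Snx5 (0.758) and the astrocyte marker Ntsr2 (0.754). No member was among the 3 genes most like another.

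Other genes of glutamate handling were taken from a list of 48, of which 42 had a probe set with that symbol alone and 41 were tested, each on its brightest probe set. With continuous ethanol 0 of 41 passed in either direction, and the median difference was 0.01, against 0.00 over all tested probe sets. At an unadjusted limma p under 0.05, 1 was higher and 5 were lower, against 9.62% and 6.48% of all tested probe sets. The 4 of smallest p were Gpt, an alanine aminotransferase (-0.14 ± 0.04, adjusted p = 0.151), Prodh, the first enzyme of proline breakdown towards glutamate (-0.18 ± 0.06, adjusted p = 0.158), Slc1a5, a neutral amino acid transporter of the same family as the uptake carriers (-0.25 ± 0.09, adjusted p = 0.209), and Gclm, the modifier subunit of the enzyme that uses glutamate and cysteine to start glutathione synthesis (0.21 ± 0.08, adjusted p = 0.211, 10 of 10 arrays above the water mean). With limited access 0 of 41 passed, with a median of -0.02, and at that unadjusted p 0 were higher and 5 lower, against 2.1% and 2.34%. There Slc1a5 (-0.30 ± 0.09, 10 of 10 arrays below), Gpt (-0.12 ± 0.04), Gpt2, a second alanine aminotransferase (-0.11 ± 0.04), and Prodh (-0.15 ± 0.06) had the smallest p, with adjusted p between 0.971 and 0.972. Between limited and continuous access 0 of 41 passed, with a median of -0.02, and 1 was higher and 1 lower at that unadjusted p, against 3.56% and 5.74%. The 4 of smallest p were Ggt1, a gamma-glutamyltransferase that acts on glutathione (0.18 ± 0.06, adjusted p = 0.526), Psat1 of serine synthesis (-0.08 ± 0.04, adjusted p = 0.536), the mitochondrial glutamate carrier gene Slc25a18 (-0.10 ± 0.05, adjusted p = 0.546) and Ogdh of the 2-oxoglutarate dehydrogenase complex (0.07 ± 0.04, adjusted p = 0.549).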

How the data were processed

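Per the labels' protocols, RNA was labelled as biotinylated cRNA for Affymetrix arrays. The authors deposited log2 values from RMA, as named in the submitters' processing notes. That the scale is log2 follows from their range (4.04 to 16.0). No RMA software version or hybridisation batch is given in the sources used here. RMA equalises arrays, which would hide a shift common to all transcripts.

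A platform table with an annotation of older date named probe sets. Of 31042 probe sets that are not controls, 20826 had 1 symbol, 436 several and 9780 none. The dimmest 30% by mean (at or below 6.86) were left out. All 29 arrays entered 1 fit in limma 3.58.1 (R 4.3.3) with group as its only factor, and p-values were adjusted over 21729 probe sets at a threshold of 0.05. Scores and probe set differences were tested by exact permutation, two-sided. Correlations used values with group means subtracted and 100000 permutations within groups. The fit was run on simulated data with independent noise for each probe set, which cannot show how it does with the correlated probe sets here. The number of arrays limits the precision. All member probe sets are named. Other genes were named by smallest p (4 a comparison) or highest r (3 a gene). Members and lists were chosen with earlier results of these data known, and some marker lists repeat markers of an earlier account. Markers without a tested probe set did not enter their scores. Choroid plexus and ependyma rested on 2 of 5 markers. Alternatives are described at the end.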

Additional observations from a re-analysis of the deposited data

Results flagged for a closer look

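Of 48 groups of arrays (16 probe sets in 3 groups), 5 held an array that lay far from the others of its group, where chance alone gives about 1 in 20. Continuous replicate 7 was the highest continuous array for Slc1a3 1368565_at, at 14.20 against 14.01 for the next, and for Glud1 1370200_at, at 12.73 against 12.53. Continuous replicate 4 was at 7.99 for Slc1a2 1369694_at, against 7.52 for the next. Continuous replicate 3 was the lowest for Slc17a6 1368564_at, at 8.95 against 9.27. Limited replicate 9 was the highest limited array for Slc7a11 1378133_at, at 10.89 against 10.63. That array also had the highest leptomeningeal score of the limited arrays, 0.64. Its choroid plexus and ependyma score, which rests on 2 markers, was the highest of all arrays at 4.03. The part of these in its high Slc7a11 value was not tested. Continuous replicate 7 also had the highest mean 3 prime minus 5 prime signal of beta-actin and GAPDH of all arrays, 0.66 (the other continuous arrays 0.47 to 0.63), and the part of this in its high values was not tested.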

How the results depend on the processing

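The count of members past the threshold was 0 in every comparison under all 17 alternatives and with each of the 29 arrays left out in turn (range 0 to 0). Alternatives changed the filter (none or stricter), normalization (quantile again, median centring), limma prior, array weights, block, groups fitted or probe sets per gene (1), or left out the 5 arrays. Others added 1 covariate: 3 prime minus 5 prime signal, array SD, or the cortical, astrocyte, leptomeningeal, subcortical or endothelial score. With the stricter filter or 1 probe set per gene, not all 16 entered. The smallest adjusted p of a member for continuous minus water was 0.122, for Glul without water replicate 4, and 0.183 for Glul with the replicate number as a block, where the Glul 1386870_at difference was -0.11 ± 0.04. The block gave 0 members in each comparison. Same-numbered arrays of different groups had a median correlation of 0.0786 in their deviations, above 0.1 in 12 of 27 pairs. For 2 of 29 arrays the most alike array of another group had their own number. The number was not taken to pair samples in the main fit, and this check cannot exclude a weak pairing. Over all probe sets the count for continuous minus water, 33, ranged from 10 to 52 under the alternatives and from 18 to 94 with single arrays left out. That for limited minus water ranged from 0 to 2, and that for limited minus continuous from 0 to 3. Of 263 member differences a comparison, 12, 12 and 20 changed sign under the alternatives, and none of these was past the threshold in either fit. Over all settings Slc7a11 lay between -0.23 and -0.01 for continuous minus water and Slc17a6 between 0.04 and 0.31, both nearest 0 with the endothelial score as a covariate. Of 16 called relations, 7 kept an adjusted p under 0.05 without the 2 farthest arrays, 9 without continuous replicate 7, 13 without the 5 arrays that lay apart and 15 without water replicate 9. Covariates for the endothelial and subcortical scores and the ways of leaving out arrays for relations were chosen after seeing the data.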
